A study of Mus musculus with 10 samples.

Results

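The genes described here are the inhibitors of cyclin-dependent kinases (CDKs): the INK4 family (Cdkn2a, Cdkn2b, Cdkn2c and Cdkn2d) and the CIP/KIP family (Cdkn1a, Cdkn1b and Cdkn1c). The 7 genes were chosen by name, of 18193 genes named on the array, and every probe set annotated to 1 of these symbols was taken. This gave 9 probe sets of 45037 after leaving out controls. Cdkn1a and Cdkn1b have 2 probe sets each and the other genes 1 each. Of the 9, 8 lay above the filter on dim probe sets, a log2 value above 4 on at least 5 of the 10 arrays, and Cdkn2a did not.

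The study compared gene expression in islets of 10 female mice, all 5 weeks old and of a strain labelled C57 on a 129 background. Of these, 5 were heterozygous for Men1 and 5 were wildtype littermates. The labels do not name the Men1 allele or say in which tissues it is inactive. About 100 islets of each mouse were pooled to 1 RNA sample, so that each of the 10 arrays stands for a separate mouse. All values are on the log2 scale, a difference is heterozygous minus wildtype, and a difference of 1 is a doubling.

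CDK inhibitors hold back the step from G1 into DNA replication. INK4 proteins bind CDK4 and CDK6 and keep them from joining D-type cyclins, while CIP/KIP proteins bind complexes of cyclin and kinase, above all those of CDK2. Menin, the product of Men1, is part of a histone methyltransferase complex with Kmt2a or Kmt2b. In islets this complex is known to bind at Cdkn1b and Cdkn2c and to keep both genes active, and mice that lack both inhibitors develop endocrine tumours much like those of Men1 mutants.

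Cdkn2b (probe set 1449152_at) had the widest difference of the 9 probe sets. Its sequence around the transcript start is printed here with that of its neighbour Cdkn2a, which lay at background, because both genes stand next to each other on mouse chromosome 4 and are read from the same strand. The windows run from 250 bases before to 50 bases after an annotated RefSeq transcript start, in assembly GRCm38.p6, on the minus strand. Capitals mark the letters GGGCGG on either strand, the core of a GC box, and TGACGTCA, the palindrome of a cyclic AMP response element. The windows lie at chr4:89310983-89311282 for Cdkn2b, at chr4:89294570-89294869 for the upstream start of Cdkn2a and at chr4:89282143-89282442 for its downstream start.
Cdkn2b: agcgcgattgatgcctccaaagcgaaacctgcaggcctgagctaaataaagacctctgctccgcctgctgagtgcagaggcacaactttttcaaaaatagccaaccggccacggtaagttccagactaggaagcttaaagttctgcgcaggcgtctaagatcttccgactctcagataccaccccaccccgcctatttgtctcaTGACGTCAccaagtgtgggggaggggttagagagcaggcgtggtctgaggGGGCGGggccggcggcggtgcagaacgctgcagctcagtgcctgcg
Cdkn2a, upstream start: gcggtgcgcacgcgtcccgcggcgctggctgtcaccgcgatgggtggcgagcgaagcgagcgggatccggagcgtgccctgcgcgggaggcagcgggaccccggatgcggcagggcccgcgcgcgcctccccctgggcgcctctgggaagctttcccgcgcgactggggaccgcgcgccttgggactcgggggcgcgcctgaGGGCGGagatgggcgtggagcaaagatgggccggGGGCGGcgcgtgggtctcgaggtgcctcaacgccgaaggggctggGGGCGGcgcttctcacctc
Cdkn2a, downstream start: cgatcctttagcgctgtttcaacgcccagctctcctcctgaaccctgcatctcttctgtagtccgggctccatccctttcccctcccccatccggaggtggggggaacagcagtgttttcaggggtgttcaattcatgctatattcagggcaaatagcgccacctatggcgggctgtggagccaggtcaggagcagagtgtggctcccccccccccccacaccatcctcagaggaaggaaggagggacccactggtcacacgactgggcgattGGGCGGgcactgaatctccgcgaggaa

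The Cdkn2b window holds GGGCGG at 1 place and TGACGTCA at 1 place, and 57.67% of its bases are G or C. Its neighbour's upstream window holds GGGCGG at 3 places with a G and C share of 77%, and the downstream window at 1 place with 60.33%. Both strands were searched. Over all 32851 RefSeq windows of this length, 35.66% hold GGGCGG and 1.79% hold TGACGTCA. RefSeq windows of 6 of the 7 genes were matched, 9 windows in all, and Cdkn1c had none in the table used. Among these 9 windows, TGACGTCA was found in that of Cdkn2b alone. The arrays measure transcripts and not binding, so these matches describe the letters only.

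The arrays were alike in their medians (3.28 to 3.40) and correlated with one another at r = 0.962 to 0.988. Men1 was read from the 1 of its 3 probe sets above the filter. It ranged from 6.25 to 7.21 in wildtype mice and from 6.09 to 6.82 in heterozygous mice. The difference was -0.47 (SE 0.20), with an adjusted p of 0.9999 by limma. Heterozygous replicates 2 (6.09) and 5 (6.16) lay below all wildtype mice. The labels do not say which part of Men1 is altered or whether this probe set covers it, so that this difference is no check of the labels. Beta cell markers were bright in both genotypes, with a list mean of 12.62 ± 0.28 in wildtype mice and 12.61 ± 0.29 in heterozygous mice (SD, n = 5 each), and the acinar list, markers of the surrounding enzyme-secreting cells, had a mean of 15.12 ± 0.17 and 15.02 ± 0.26. All 11 measured acinar genes had lower means in heterozygous islets, with a median difference of -0.044, and 0 passed the adjusted test. Most of these genes had means above 16, where the highest value of any array was 17.6, and varied little. Ctrc, Ptf1a and Bhlha15 were dimmer and varied more, with a wildtype SD of 1.37, 0.59 and 0.52, and so weigh most in the spread of the list mean. The samples thus hold transcripts of acinar cells besides those of islet cells. Lymphocyte markers stood apart in heterozygous replicates 2 and 5, with list means of 6.72 and 6.35 against 4.46 to 5.57 in the other 8 mice. The 5.57 was that of wildtype replicate 5, and the remaining mice lay at 4.715 or lower. This mean covers the 5 of 12 listed genes above the filter. The B cell genes Ighm and Ms4a1 and the general leukocyte gene Ptprc were highest in heterozygous replicates 2 and 5. They were next highest in wildtype replicate 5 (6.01, 5.31 and 8.14). Ltb was not highest in heterozygous replicates 2 and 5 (4.28 in each), and the T cell genes Cd3d, Cd3e, Cd3g and Cd2 were at 2.96 or lower in all 10 mice. Inhibitor results that rest on heterozygous replicates 2 and 5 are therefore also given without them. Wildtype replicate 5 was kept in these fits. The Men1 difference is given on all 10 mice only. Heterozygous replicates 2 and 5 gave the lowest Men1 values and wildtype replicate 5 the next lowest (6.25). In whole islets, fewer cells of a type and less RNA per cell cannot be told apart.

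Of the INK4 genes, Cdkn2b, which encodes p15, stood higher in heterozygous islets. Its wildtype values were 7.77, 7.17, 7.65, 7.03 and 7.21 in replicates 1 to 5, and its heterozygous values were 7.69, 7.86, 7.73, 8.03 and 8.00. All 5 heterozygous mice lay above the wildtype mean and 3 of them above every wildtype mouse, and the groups overlapped through wildtype replicate 1. The means were 7.36 ± 0.32 and 7.86 ± 0.15 (SD, n = 5 each), a difference of 0.50 (SE 0.15, 95% interval 0.16 to 0.84), or 1.41-fold with an interval of 1.12 to 1.79. An exact two-sided permutation test over the 252 assignments of mice gave p = 0.0238, where the smallest possible p is 0.00794.

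The Cdkn2b difference did not pass the test over all probe sets. Its limma p of 0.00802 ranked 106 of 18567 probe sets (the first 0.571%) and became 0.9999 after Benjamini-Hochberg adjustment. Over all probe sets, 0 passed an adjusted p of 0.05 (0%) with limma, 4.09% had an unadjusted p under 0.05 and 0.727% had one under 0.01. Of the 8 CDK inhibitor probe sets tested, Cdkn2b was the only one under either unadjusted value. A difference at least as wide as that of Cdkn2b, in either direction, was seen in 2.85% of all probe sets.

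Leaving out single mice moved the Cdkn2b difference between 0.42 (without wildtype replicate 4) and 0.60 (without wildtype replicate 1). Without heterozygous replicates 2 and 5, the mice highest in lymphocyte markers, it was 0.45 (SE 0.19, 95% interval 0.018 to 0.89), with an adjusted p of 0.9996 by limma. Without wildtype replicate 5, the next highest in these markers, the Cdkn2b difference was 0.46 (SE 0.17). With the mean of the stromal markers as a covariate it was 0.55 (SE 0.20), and with that of the acinar markers 0.42 (SE 0.13). It lay between 0.42 and 0.60 in each of these fits, and its adjusted p between 0.719 and 1 over all 20 alternatives.

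**Figure D1:**
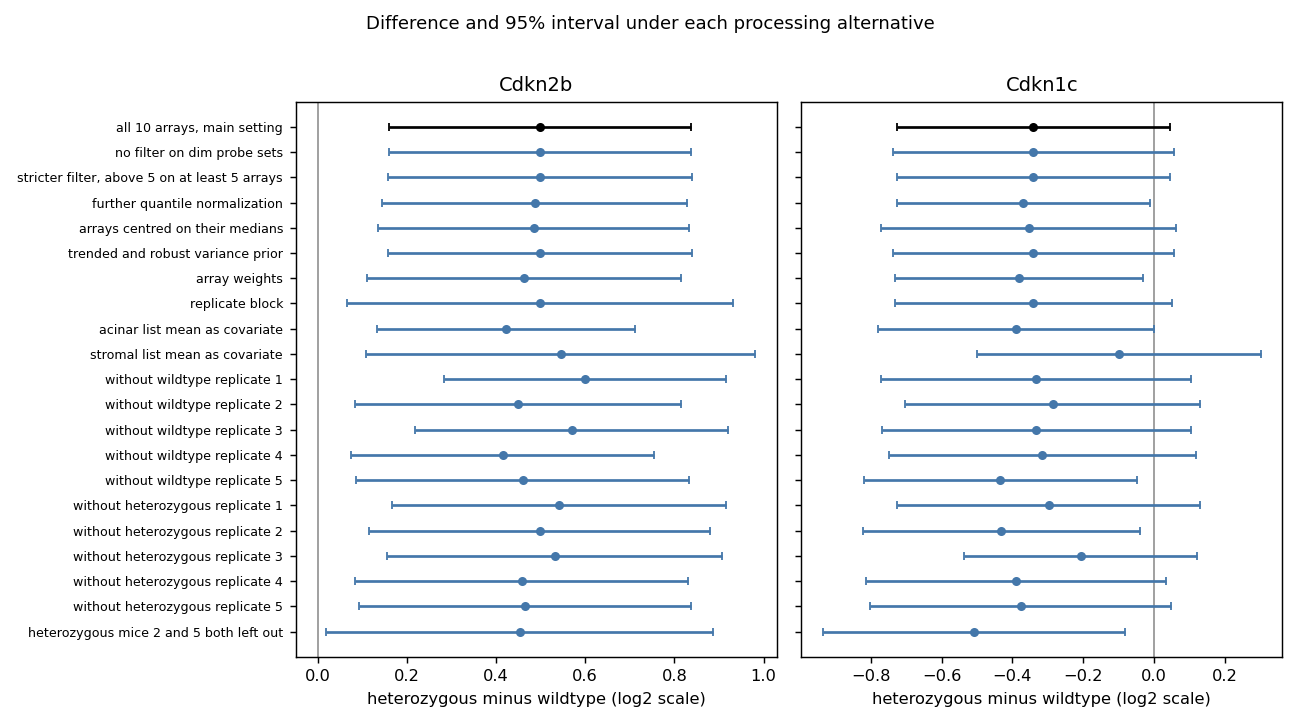
Difference of Cdkn2b (left) and Cdkn1c (right) between heterozygous and wildtype islets on the log2 scale, with 95% intervals, for all 10 arrays (black) and for each alternative setting (blue). The Cdkn2b points lie between 0.42 and 0.60 and no interval reaches 0, while the Cdkn1c points lie between -0.51 and -0.10 and most intervals cross 0.

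Cdkn2a, which encodes both p16 and, from the upstream start, p19Arf, lay at background in every mouse. The values ran from 2.24 to 2.30 in wildtype and from 2.23 to 2.29 in heterozygous islets, below the array medians, and 0 of 10 arrays reached the filter value of 4. Its probe set spread over 0.071 in all, so that the arrays show no transcript above background and allow no statement on a difference. The nearest protein-coding genes in the RefSeq order around the pair are Mtap, an enzyme of methionine salvage, and Dmrta1. The brightest Mtap probe set differed by 0.14 (SE 0.13), and the other 3 by 0.31 (SE 0.10, 95% interval 0.080 to 0.54), 0.15 (SE 0.13) and -0.16 (SE 0.24), each with an adjusted p of 0.9999 by limma. With the stromal mean as a covariate the Mtap probe sets, in the same order, differed by 0.34 (SE 0.13), 0.34 (SE 0.13), 0.064 (SE 0.16) and 0.020 (SE 0.29). Dmrta1 was not above the filter.

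Cdkn2c, which encodes p18 and is a known menin target in islets, lay at 7.54, 7.54, 7.27, 7.06 and 7.09 in wildtype replicates 1 to 5. In heterozygous replicates 1 to 5 it stood at 7.29, 6.97, 7.31, 7.39 and 7.47. The groups covered nearly the same span, with wildtype replicates 1 and 2 highest and heterozygous replicate 2 lowest. The means were 7.30 ± 0.23 and 7.28 ± 0.19 (SD, n = 5 each), a difference of -0.016 (SE 0.13, 95% interval -0.31 to 0.28). As a fold this interval reaches from 0.805 to 1.21, so that changes of either sign within these bounds cannot be told from none. The adjusted p was 0.9999 by limma, and the exact permutation p was 0.913.

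Cdkn2d, which encodes p19, was almost flat in 9 of the 10 mice. It ran from 4.15 to 4.23 in wildtype islets and from 4.18 to 4.22 in heterozygous replicates 1 to 4, and stood at 4.66 in heterozygous replicate 5. All 10 values passed the filter of 4 by less than 1 unit, and the wildtype SD was 0.029, as small as that of Cdkn2a at background (0.028). The difference was 0.11 (SE 0.11) on all mice and 0.013 without heterozygous replicate 5, and so it rests on that mouse, which was also high in lymphocyte markers. Whether the lymphocytes took part in this value was not tested.

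**Figure D2:**
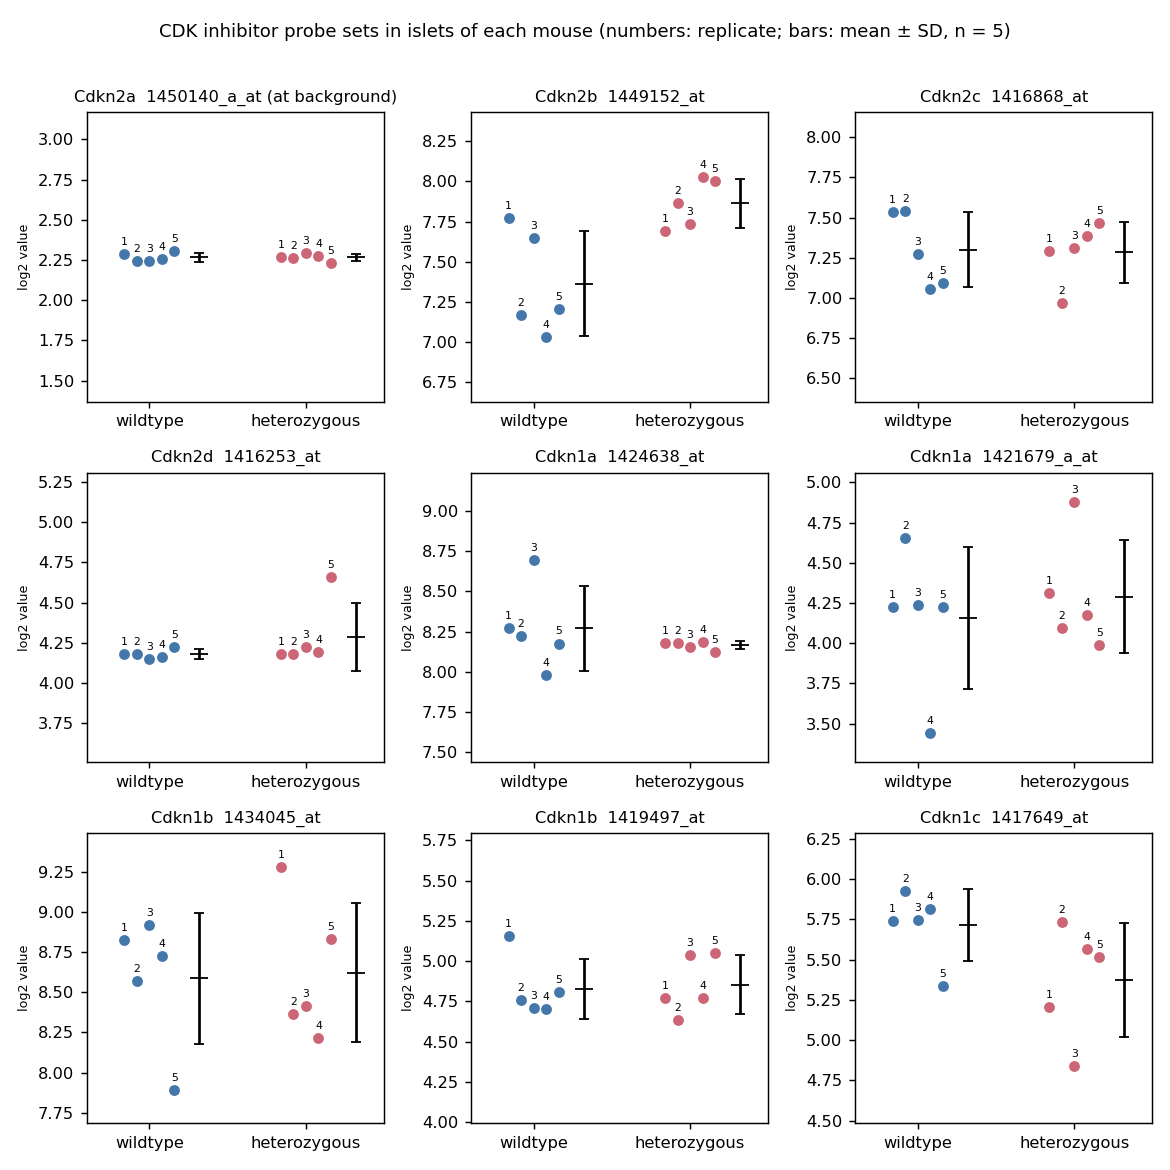
Log2 values of the 9 CDK inhibitor probe sets in each wildtype (blue) and heterozygous (red) mouse, with the replicate number above each point and the mean ± SD beside each group of 5. Each panel covers the same span of log2 values. In the Cdkn2b panel 3 heterozygous mice lie above all wildtype mice, and the Cdkn2a panel is flat at 2.23 to 2.30.

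Among the CIP/KIP genes, Cdkn1b encodes p27, the other inhibitor known as a menin target in islets. Its brighter probe set (1434045_at) stood at 8.82, 8.57, 8.92, 8.72 and 7.89 in wildtype replicates 1 to 5 and at 9.28, 8.37, 8.41, 8.22 and 8.83 in heterozygous replicates 1 to 5. The highest mouse was heterozygous and the lowest wildtype, and the remaining 8 were mixed. The difference was 0.036 (SE 0.24) with a wide 95% interval of -0.49 to 0.56, or 0.712-fold to 1.48-fold. The pooled SD of this probe set, 0.42, was at the 85.0th percentile of all probe sets tested. It was thus among the more variable probe sets between mice of 1 genotype. Without wildtype replicate 5 the difference was -0.14, and without heterozygous replicate 1 it was -0.13.

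The second Cdkn1b probe set (1419497_at) was dimmer, at 4.71 to 5.16 in wildtype and 4.63 to 5.05 in heterozygous islets. It was also less variable, with a pooled SD of 0.19, at percentile 29.1 of all probe sets tested. Wildtype replicate 1 was highest at 5.16, with the other 4 wildtype mice between 4.71 and 4.81. The difference was 0.025 (SE 0.12, 95% interval -0.24 to 0.30). The mice were not ordered alike by both probe sets: in 4 of 10 mice they lay on the same side of their own medians.

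Cdkn1a, which encodes p21 and is a main target of p53, stood at 8.27, 8.22, 8.70, 7.98 and 8.18 in wildtype replicates 1 to 5 by its brighter probe set (1424638_at). In heterozygous replicates 1 to 5 it stood at 8.18, 8.18, 8.16, 8.19 and 8.12. The heterozygous mice lay close together, with an SD of 0.025 against 0.26 in wildtype mice, and inside the wildtype range. The difference in spread was not tested. The means differed by -0.11 (SE 0.12, 95% interval -0.38 to 0.17), and by 0.0012 without wildtype replicate 3. The second probe set (1421679_a_at) was near the filter, at 3.44 to 4.65 in wildtype and 3.99 to 4.88 in heterozygous islets, and passed it on 8 of 10 arrays. It differed the other way, by 0.13 (SE 0.23), and by -0.044 without wildtype replicate 4.

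Cdkn1c, which encodes p57 and is expressed from the maternal copy of an imprinted region, had the lowest difference of the 9 probe sets. Wildtype replicates 1 to 5 stood at 5.74, 5.93, 5.75, 5.82 and 5.34, and heterozygous replicates 1 to 5 at 5.20, 5.74, 4.84, 5.57 and 5.52. In 4 of 5 heterozygous mice it lay below the wildtype mean and in 2 below every wildtype mouse, and the groups overlapped. The means were 5.71 ± 0.22 and 5.37 ± 0.35 (SD, n = 5 each), a difference of -0.34 (SE 0.18, 95% interval -0.73 to 0.046), or 79.0% of the wildtype level. The exact permutation p was 0.103, and the limma p of 0.0784 became 0.9999 after adjustment.

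Stromal markers, genes of fibroblasts and of the mural cells of vessels, were read beside Cdkn1c. All 15 of 15 listed markers were measured and had lower means in heterozygous islets, with none at background and a list mean of 9.71 to 10.49 in wildtype and 8.80 to 10.57 in heterozygous mice. The 2 mice with the lowest Cdkn1c, heterozygous replicates 3 and 1, also had the lowest stromal means, 8.80 and 8.88. The next lowest stromal mean, 9.27, was in heterozygous replicate 2, whose Cdkn1c value of 5.74 lay above the wildtype mean. Heterozygous replicates 3 and 1 were lowest as well in the list means of endothelial markers (7.33 and 7.53) and myeloid markers (6.49 and 6.43). They were not the lowest in the beta cell, acinar or duct cell lists. In the list of alpha, delta and PP cell markers heterozygous replicate 3 was the lowest mouse (10.55), and heterozygous replicate 1 stood at 10.93. The endothelial and myeloid means were not used as covariates. With the stromal mean as a covariate the Cdkn1c difference was -0.10 (SE 0.18), against -0.34 without it. Without heterozygous replicate 3 it was -0.21 (SE 0.15), and without heterozygous replicates 2 and 5 it was -0.51 (SE 0.19, 95% interval -0.94 to -0.083), with an adjusted p of 0.9996 by limma. Without wildtype replicate 5 it was -0.43 (SE 0.17, 95% interval -0.82 to -0.049), with an adjusted p of 0.966 by limma. The part of the stromal cells in the difference was not tested beyond the covariate fit.

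**Figure D3:**
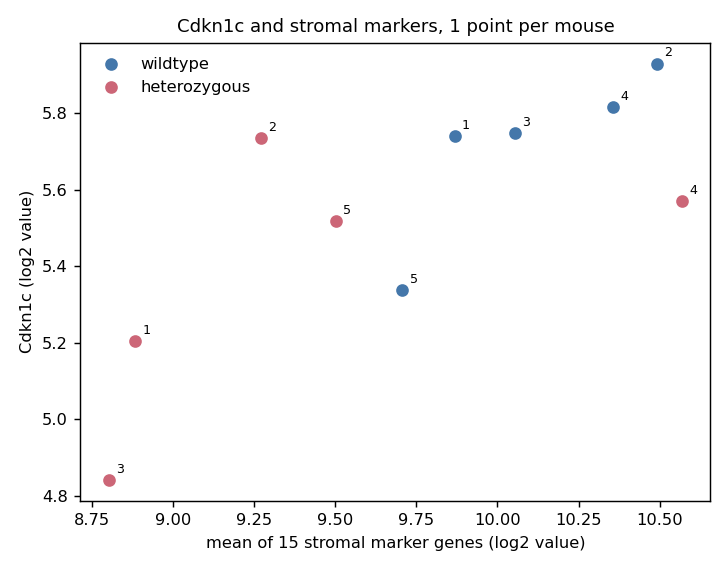
Cdkn1c (vertical axis, log2 value) against the mean of 15 stromal marker genes (horizontal axis, log2 value) in each wildtype (blue) and heterozygous (red) mouse, numbered by replicate. Heterozygous replicates 3 and 1 lie lowest on both axes, and heterozygous replicate 4 has the highest stromal mean (10.57) with a Cdkn1c value of 5.57.

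Over the 8 probe sets tested, 5 had a higher and 3 a lower mean in heterozygous islets, with a median difference of 0.030. Over all 18567 probe sets the median was 0.022, and 56.4% had a higher mean in heterozygous islets. No CDK inhibitor separated the genotypes, where 0.7% of all probe sets did. The median 95% interval of the 8 reached 0.32 to either side, or 1.25-fold, against 0.33 for all probe sets. By this median the CDK inhibitors were measured about as precisely as other transcripts. Single intervals differed, from -0.13 to 0.34 for Cdkn2d, which lay near the filter, to -0.49 to 0.56 for the brighter Cdkn1b probe set.

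**Figure D4:**
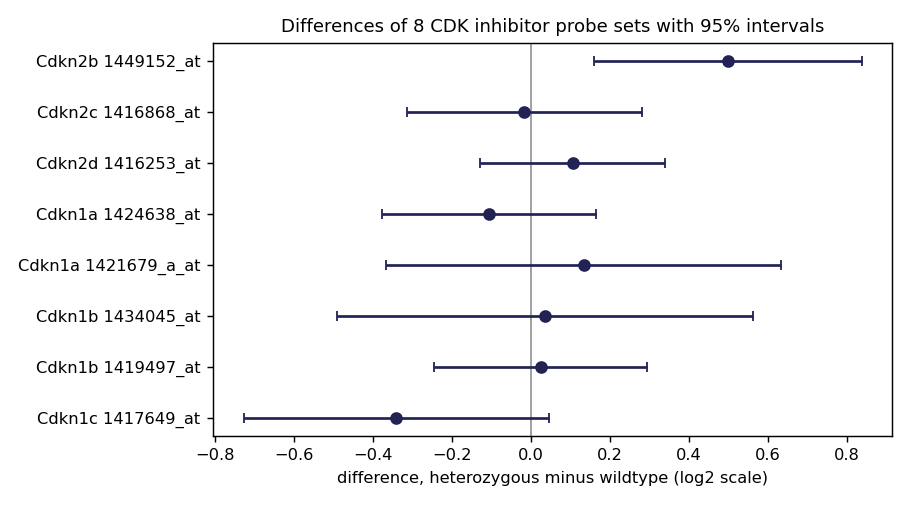
Difference between heterozygous and wildtype islets on the log2 scale for the 8 CDK inhibitor probe sets above the filter, with 95% intervals from limma (5 mice per genotype). The interval of Cdkn2b (0.16 to 0.84) lies above 0, and the other 7 intervals include 0.

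The kinases and cyclins that these inhibitors act on were read from a fixed list. Of 9 measured genes of 10 listed, 3 had higher and 6 lower means, with a median of -0.087, and 0 passed the adjusted test. Of the kinases bound by INK4 proteins, Cdk4 differed by -0.079 (SE 0.13) and Cdk6 by 0.0027 (SE 0.25), with its dimmer probe set at -0.061 (SE 0.22). Cdk2, the main kinase held by CIP/KIP proteins, was dim and differed by -0.19 (SE 0.12). The D-type cyclin genes lay on the lower side, Ccnd1 at -0.15 (SE 0.21), Ccnd2, whose probe sets disagreed in sign, at -0.087 (SE 0.18) and Ccnd3 at -0.28 (SE 0.17). Each of these intervals includes 0. With the stromal mean as a covariate the brightest probe sets of Ccnd1 and Cdk4 differed by 0.13 (SE 0.22) and 0.015 (SE 0.16). Those of Ccnd2 and Ccnd3 differed by -0.098 (SE 0.23) and -0.20 (SE 0.22), and the dimmer Ccnd1 probe sets by -0.082 (SE 0.32) and -0.28 (SE 0.43).

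Downstream of the kinases, 4 of 7 measured Rb and E2F genes had higher and 3 lower means (median 0.049). Rb1, which encodes the protein that G1 kinases inactivate, differed by 0.14 (SE 0.15), and E2f1, whose probe sets disagreed in sign, by 0.21 (SE 0.12). Of 17 proliferation genes listed, 8 were measured, 3 with higher and 5 with lower means (median -0.13). Mki67, a marker of cycling cells, differed by 0.026 (SE 0.23), Cdc20, an activator of the anaphase complex, by -0.27 (SE 0.13) and the replication clamp gene Pcna by -0.16 (SE 0.14). The dimmer Cdc20 probe set differed by -0.45 (SE 0.19, 95% interval -0.87 to -0.029). None of these passed the adjusted test, and the intervals of the brighter probe sets include 0. With the stromal mean as a covariate Pcna differed by 0.0037 (SE 0.16) and the brighter Cdc20 probe set by -0.27 (SE 0.17).

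Regulators of the inhibitors were read in the same way. Of 10 genes of the menin complex and its partners, 3 had higher and 7 lower means (median -0.086), among them Men1 itself, Kmt2a, whose probe sets disagreed in sign, at -0.10 (SE 0.12) and the shared complex subunit Wdr5 at -0.13 (SE 0.097). The polycomb list holds subunits of the complexes known to silence Cdkn2a and Cdkn2b together with histone demethylases, some of which oppose that silencing, and 5 of its 12 genes had higher and 7 lower means (median -0.016). Kdm6a, a demethylase that removes the polycomb mark, differed by 0.20 (SE 0.10), and the polycomb subunit gene Cbx8 by -0.12 (SE 0.16). With the stromal mean as a covariate they differed by 0.15 (SE 0.13) and 0.036 (SE 0.18). Of 5 measured genes of p27 turnover, 3 were higher and 2 lower, with the ubiquitin ligase genes Rnf123 at 0.16 (SE 0.13) and Cul1 at -0.097 (SE 0.095). No gene of these lists passed the adjusted test.

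Around Cdkn1a, 4 of 9 measured p53 pathway genes had higher and 5 lower means (median -0.0038). Sesn2, a stress-induced p53 target, had a mean of 7.37 ± 0.17 in wildtype mice and 7.74 ± 0.28 in heterozygous mice (SD, n = 5 each), a difference of 0.37 (SE 0.14), with 4 of 5 heterozygous mice above every wildtype mouse. The dimmer Sesn2 probe set differed by 0.00063 (SE 0.12). With the stromal mean as a covariate the brighter Sesn2 probe set differed by 0.18 (SE 0.15). Bbc3, which encodes the cell death protein Puma, differed by 0.25 (SE 0.15). The adjusted p of these probe sets was 0.9999 by limma without the covariate. Among regulators of Cdkn2b and other inhibitors in the TGF-beta and FoxO list, 7 of 9 were higher and 2 lower (median 0.070). Tgfbr2, the receptor that binds TGF-beta, differed by -0.51 (SE 0.26), and by 0.015 (SE 0.16) with the stromal mean as a covariate. Its lowest mice, heterozygous replicates 1 (7.45) and 3 (7.64), were also the lowest in stromal, endothelial and myeloid markers. Myc, a repressor of Cdkn2b and Cdkn1a, differed by 0.44 (SE 0.30).

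In the list of genes in the wider chromosome region of Cdkn1c, 1 of 7 measured had a higher and 6 a lower mean (median -0.074). Igf2, a paternally expressed growth factor gene, had a mean of 6.37 ± 0.30 in wildtype mice and 5.45 ± 0.66 in heterozygous mice (SD, n = 5 each), a difference of -0.91 (SE 0.29), with 4 of 5 heterozygous mice below every wildtype mouse. With the stromal mean as a covariate the Igf2 difference was -0.63 (SE 0.33). Cd81, a tetraspanin gene, differed by -0.32 (SE 0.15), and by -0.14 (SE 0.17) with that covariate. Kcnq1ot1, the noncoding RNA that silences Cdkn1c on the paternal copy, has 3 probe sets above the filter, which differed by 0.072 (SE 0.26), -0.39 (SE 0.27) and 0.39 (SE 0.30). The adjusted p was 0.9999 for each of these by limma without the covariate.

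**Figure D5:**
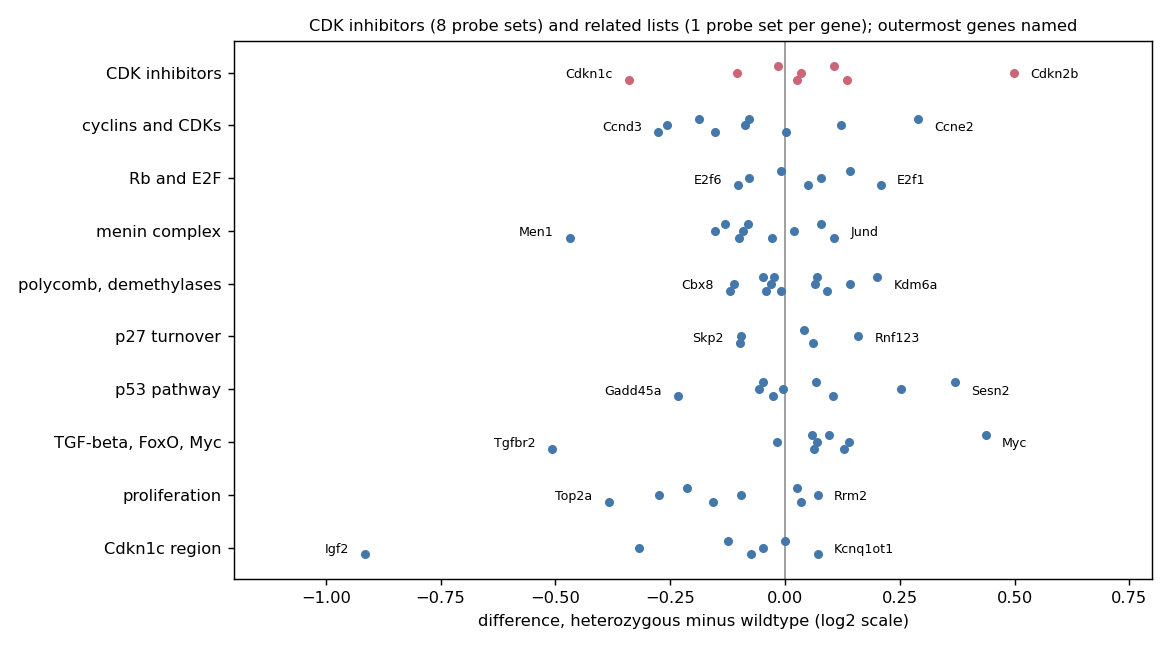
Differences between heterozygous and wildtype islets on the log2 scale for the 8 CDK inhibitor probe sets (red) and for the genes of 9 related lists (blue, 1 probe set per gene), with the outermost genes of each row named. Cdkn2b (0.50) and Cdkn1c (-0.34) are the outermost inhibitors, and most genes of the related lists lie within 0.3 of 0.

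The transcripts whose pattern over the 10 mice was most like that of each inhibitor were read from 10532 other genes, as Pearson's r of the log2 values. For Cdkn2b these were 1810062G17Rik (r = 0.915), Mfsd13a (0.901) and Septin3 (0.888). For Cdkn1c they were Lta4h (0.984), Mgst1 (0.943) and Pmp22 (0.926), and for the brighter Cdkn1b probe set the beta cell transcription factor gene Nkx6-1 (0.920), the glycolytic gene Pfkl (0.920) and Car15 (0.912). For Cdkn1a they were Slc7a6os (0.944), Sox13 (0.940) and Ankzf1 (0.933), for Cdkn2c Hunk (0.872), Zdhhc14 (0.862) and Ctdp1 (0.850), and for Cdkn2d, whose pattern is 1 high mouse, Map10 (0.996), Fam219a (0.986) and Ankmy2 (0.978). With 10 mice and this many candidates such values describe these arrays only.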

How the data were processed

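The deposited log2 values, 1 per probe set and array, come from GCRMA according to the submitters' processing notes, a method that adjusts background by probe sequence, normalizes arrays and pulls dim probe sets to a common low value. RNA (100 ng) was amplified over 2 cycles, per the labels' protocols, which shortens transcripts. The log2 scale was read from the values. No scanner is named in the labels. The number of arrays limits the precision.

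After leaving out 64 controls, probe sets were named by the platform annotation: 34945 carry 1 symbol, 932 several, and 9160 are unnamed here. The filter kept 18567. Genotypes were compared by limma 3.58.1 (lmFit, eBayes; R 4.3.3) with no covariate, two-sided, and Benjamini-Hochberg adjustment over all probe sets kept. Exact permutation tests, unadjusted, were run for the 9 inhibitor probe sets. Lists entered with the brightest kept probe set per gene. The fit was tested on simulated data. Named genes were every inhibitor probe set, the 3 genes most like each by Pearson's r, the 2 list members with the smallest p, and 10 fixed genes. Kcnq1ot1 and Dmrta1 were added with their values known. The genes, lists and tests were chosen with earlier results of these data known. Alternatives were filters, normalization, variance prior, array weights, replicate block, covariates and left-out mice. Figures used matplotlib 3.10.9.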

Additional observations from a re-analysis of the deposited data

Results flagged for a closer look

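Values far from the other 4 mice of their group were looked for in 68 groups of 5, the 9 inhibitor probe sets and the 25 named list genes in each genotype, where chance gives about 1 in 20. This found 2. Cdkn2d stood at 4.66 in heterozygous replicate 5, with the other 4 heterozygous mice between 4.18 and 4.22. The dimmer Cdkn1b probe set stood at 5.16 in wildtype replicate 1, with the other 4 wildtype mice between 4.71 and 4.81.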

How the results depend on the processing

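In all 22 settings 0 probe sets passed, of all those tested and of the CDK inhibitors, and the lowest adjusted p of any setting was 0.215, without heterozygous replicate 4. At an unadjusted limma p under 0.05 there were 596 to 1245 probe sets. Cdkn2b, Cdkn1c and Cdkn2d kept their direction under every alternative run. Leaving out 1 mouse gave 0.42 to 0.60 for Cdkn2b, -0.43 to -0.21 for Cdkn1c and 0.013 to 0.13 for Cdkn2d. The other 5 probe sets changed sign under some alternatives. Leaving out 1 mouse gave -0.18 to 0.0012 for the brighter Cdkn1a probe set, -0.044 to 0.26 for the dimmer one, -0.14 to 0.14 for the brighter Cdkn1b probe set, -0.024 to 0.11 for the dimmer one and -0.077 to 0.063 for Cdkn2c. The mean over both Cdkn1a probe sets was 0.015. With the stromal mean as a covariate the signs turned for the dimmer Cdkn1a probe set (-0.017), the dimmer (-0.041) and brighter (-0.078) Cdkn1b probe sets and Cdkn2c (0.045). With the acinar mean they turned for the dimmer (-0.0052) and brighter (-0.054) Cdkn1b probe sets, with array weights for the dimmer Cdkn1b probe set (-0.032), and without heterozygous replicates 2 and 5 for Cdkn2c (0.029). The cause was not tested. With the replicate number as a block, Cdkn2b differed by 0.50 (SE 0.18) and Cdkn1c by -0.34 (SE 0.16), and the block changed no call. Same-numbered mice correlated at -0.28 to 0.11 in their deviations, and 1 of 5 wildtype mice was nearest its own number, so the numbers were not taken as pairs.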
